A study of Mus musculus with 7 samples.

Results

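The EGF receptor family of mouse islets is described here through 10 genes, chosen by name from the 49315 mouse genes of the count tables: the receptors Egfr, Erbb2, Erbb3 and Erbb4 and the ligands Btc, Hbegf, Areg, Ereg, Tgfa and Egf. All 10 genes were present in the tables of all 7 libraries. The choice was by gene name, and it was made with earlier results of these data known.

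The libraries were made from ribosome-depleted total RNA of pancreatic islets of mice aged 7 days. There were 3 control pools from Nrf2lox/lox mice (numbers 1, 2 and 4) and 4 pools from mice with the Nrf2 gene deleted in β-cells (βNrf2KO, numbers 1, 2, 3 and 4). By the protocol each pool held RNA of 5 animals, while the sample titles number each library as a mouse. The libraries are taken as pools here, so the p-values measure the spread between pools and not between animals. The promoter that drives the Cre recombinase is not named in the labels, and whole islets hold other endocrine cells, vessel cells and stroma beside β-cells. The stated aim of the series was to find how Nrf2 acts on β-cell proliferation in the newborn mouse.

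The receptors of this family are tyrosine kinases that sit in the cell membrane and work as pairs. Egfr binds Egf, Tgfa and Areg, and Btc, Hbegf and Ereg bind both Egfr and Erbb4. Erbb2 has no known ligand and serves as the partner of the other receptors, while Erbb3 binds neuregulins and has a weak kinase of its own. The ligands are made as membrane proteins and are released by ADAM proteases. Active receptors signal through RAS, RAF and MAP kinases and through PI3K and AKT, and in the pancreas Egfr signalling is known for its part in islet development and in the growth of β-cell mass after birth.

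Promoter sequence was taken from RefSeq (GRCm38.p6), whose table matched 7 of the 10 genes by symbol. Erbb3, Hbegf and Ereg were not matched. The 250 bases before the start of transcription are shown for Egfr and Tgfa, a receptor and a ligand whose fitted levels were higher in the βNrf2KO pools, and for Areg, whose window held the most kinds of motif searched. They lie at chr11:16751953-16752202 (Egfr), chr6:86194972-86195221 (Tgfa) and chr5:91139349-91139598 (Areg), all on the plus strand, and read 5′ to 3′. Capitals mark matches, on either strand, to the GC box GGGCGG, the TATA box TATAAA and the cAMP response element TGACGTCA.
Egfr: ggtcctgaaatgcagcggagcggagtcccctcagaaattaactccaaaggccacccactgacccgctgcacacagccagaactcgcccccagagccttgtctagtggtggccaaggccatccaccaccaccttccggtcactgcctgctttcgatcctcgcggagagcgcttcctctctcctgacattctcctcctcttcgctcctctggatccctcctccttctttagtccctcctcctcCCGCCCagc
Tgfa: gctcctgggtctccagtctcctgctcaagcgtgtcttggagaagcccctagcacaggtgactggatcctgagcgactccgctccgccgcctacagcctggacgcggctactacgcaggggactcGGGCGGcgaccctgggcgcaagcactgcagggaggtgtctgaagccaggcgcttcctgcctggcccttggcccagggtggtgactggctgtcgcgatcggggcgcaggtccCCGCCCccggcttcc
Areg: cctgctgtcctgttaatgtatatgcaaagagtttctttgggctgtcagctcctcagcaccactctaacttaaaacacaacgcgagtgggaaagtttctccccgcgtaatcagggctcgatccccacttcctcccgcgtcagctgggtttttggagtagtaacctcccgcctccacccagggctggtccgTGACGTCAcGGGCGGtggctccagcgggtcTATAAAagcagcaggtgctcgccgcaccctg

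The Egfr window held 1 GC box, 9 bases before the start, and no TATA box. Tgfa held 2 GC boxes and no TATA box. In Areg a cAMP response element, a GC box and a TATA box followed each other at 61, 52 and 31 bases before the start. Among 32851 RefSeq promoter windows of the same length, 32.7% held GGGCGG, 12.4% TATAAA and 1.55% TGACGTCA. The core of the antioxidant response element, TGACNNNGC, the element that Nrf2 binds with its small Maf partners, was searched on both strands too. It was in 10.2% of all windows and in 0 of the 8 windows of these genes (Egf has 2). A match is a description of letters, and its absence says only that they are not in this window.

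Total counts ran from 18187382 to 25373105 per library. Transcripts of the mitochondrial genome took 43.0%, 51.8% and 14.6% of all counts in control pools 1, 2 and 4. Their share was 27.7%, 22.4%, 20.7% and 10.02% in βNrf2KO pools 1 to 4, so control pools 1 and 2 stood apart from the other 5. The targeted gene Nfe2l2, which encodes Nrf2, did not differ in its whole-gene counts (log2 fold change 0.08 ± 0.23 (SE), edgeR adjusted p = 0.911). The labels do not say which exons were removed, and the other islet cells keep the gene. A Cre recombinase sequence in the tables had 0 counts in all 3 control pools and 23 to 73 in the 4 βNrf2KO pools. The β-cell markers, led by Ins2 and Ins1, summed to 16580 to 47300 CPM (counts scaled to a common library size) in control and 33260 to 45690 CPM in βNrf2KO pools. This sum joins genes that did not move alike. Ins2 was at 14080, 8268 and 25550 CPM in control pools 1, 2 and 4 and at 28980, 22370, 31790 and 24060 CPM in βNrf2KO pools 1 to 4. Ins1 was at 9272, 6086 and 16070 CPM in the control pools and at 7916, 5997, 6958 and 5565 CPM in the βNrf2KO pools. The cause was not tested. The lists of other cell types were also above 0, with mesenchyme at 777 to 1986 CPM, duct at 170 to 293 CPM and acinar cells at 51.5 to 392 CPM over the 7 pools. In bulk islets, fewer cells of a type and less RNA per cell cannot be told apart.

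No member passed the test between βNrf2KO and control. The test was edgeR's quasi-likelihood test with Benjamini-Hochberg adjustment over all 19893 genes that passed a filter on low counts, and a gene was called at an adjusted p under 0.05. Of those genes 0 (0%) were called, so no change was called for any gene of the table. DESeq2 called 2 genes (0.0101%) and limma-voom 0, and no member was among them. The filter kept 8 of the 10 members; Areg and Ereg had too few reads. At an unadjusted p under 0.05, 1683 genes (8.46%) remained in the table, 642 higher in βNrf2KO (3.23%) and 1041 lower (5.23%). Among the 8 tested members that count was 1 higher (Egfr) and 0 lower. Of the fitted differences, 3 were above 0 and 5 below, with a median of -0.16 on the log2 scale, against 49.4% above 0 and a median of -0.01 over all tested genes.

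**Figure D1:**
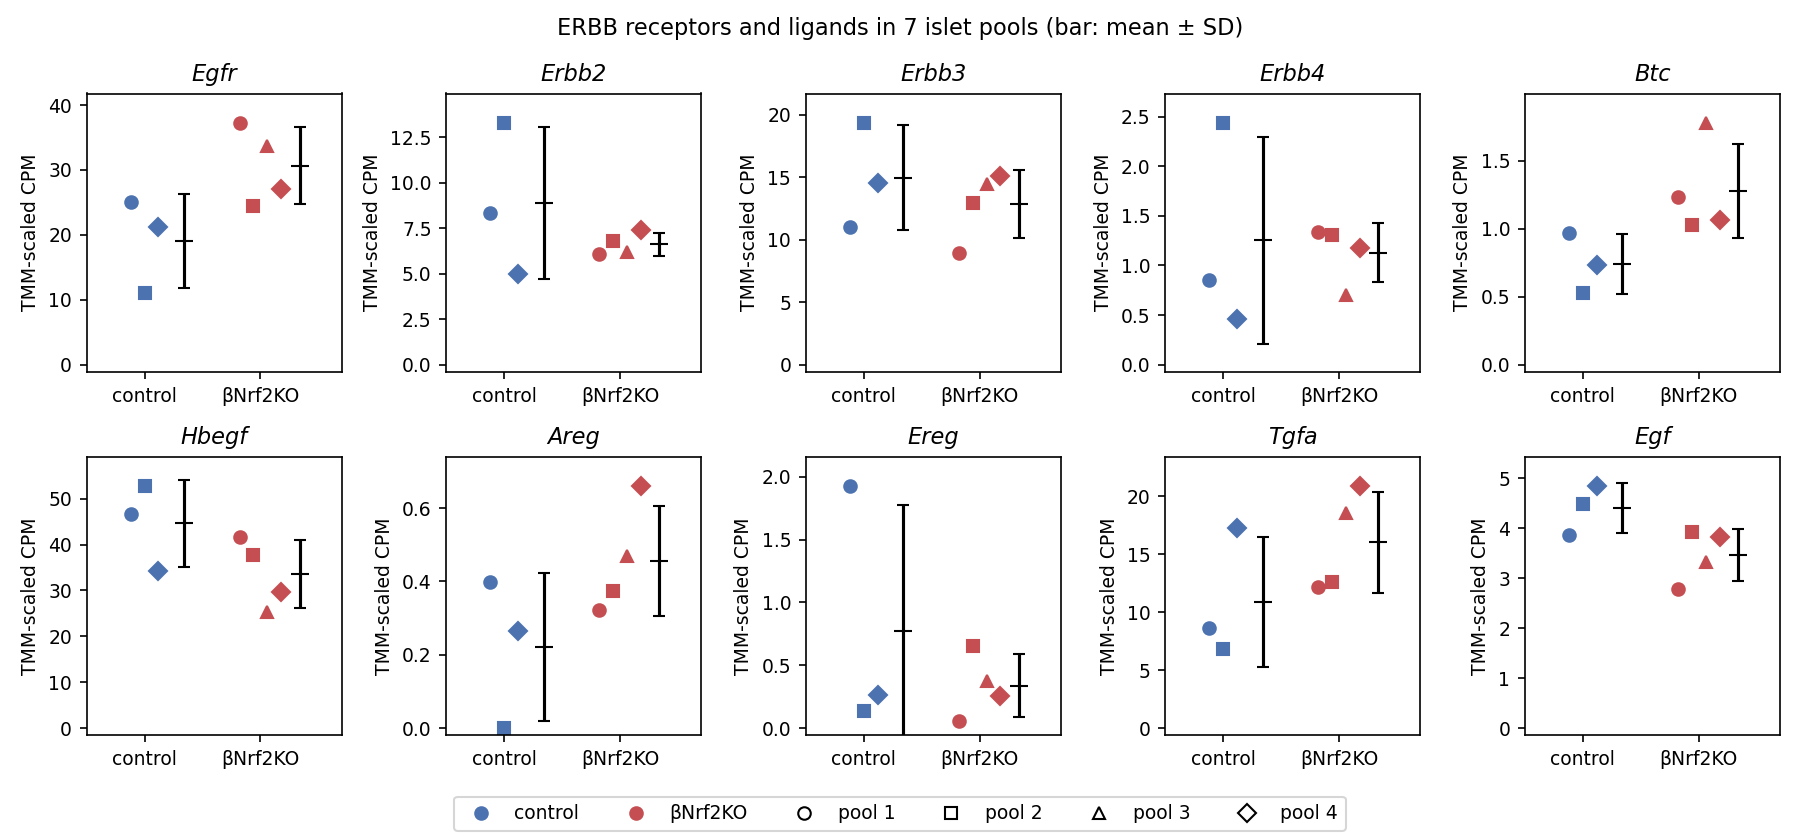
Level of each of the 10 genes in every pool, in TMM-scaled CPM (y axes, linear, a different range per gene), for control (blue) and βNrf2KO (red) pools. The marker shape gives the pool number, and the bar is the mean with its SD over 3 or 4 pools. Egfr and Tgfa sit higher in βNrf2KO but overlap with control, Btc does not overlap, and the SD bar of Ereg in control runs past the lower edge because 1 pool holds most of its reads.

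Egfr was the member with the smallest p. It was at 25.1, 11.0 and 21.2 CPM in control pools 1, 2 and 4, and at 37.3, 24.4, 33.8 and 27.0 CPM in βNrf2KO pools 1, 2, 3 and 4. Control pool 2 was the lowest of the 7, and the groups overlapped because control pool 1 stood just above βNrf2KO pool 2. The means were 19.1 ± 7.26 CPM (SD, n = 3) and 30.6 ± 5.93 CPM (SD, n = 4), and the fitted difference was 1.60-fold, or 0.68 ± 0.27 on the log2 scale (SE, edgeR unadjusted p = 0.0259, adjusted p = 0.571). A p at or below that of Egfr was found for 3.9% of all tested genes, and a difference at least as large, in either direction, for 12.1%. Without control pool 2 the difference was 0.40 ± 0.21 on the log2 scale (edgeR unadjusted p = 0.0782), and without control pool 1 it was 0.92 ± 0.29.

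The labels number the libraries, each titled as a mouse, and do not state a pairing. With the number taken as a block in the fit, Egfr differed by 0.68 ± 0.19 on the log2 scale (edgeR unadjusted p = 0.00375, adjusted p = 0.267). βNrf2KO pool 3 has no control of its number and adds nothing to that difference. Tgfa then also had an unadjusted p under 0.05, so the count among members was 2 higher and 0 lower, against 12.1% of all genes in either direction. Over the whole table the blocked fit called 14 genes (0.0704%), 1 higher and 13 lower, and no member was among them. Egfr was higher in βNrf2KO in each of the 3 pairs of equal number, by 0.57, 1.14 and 0.35 log2 CPM in pairs 1, 2 and 4.

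The count of members at an unadjusted p under 0.05 moved with the pools and covariates in the fit, and so did the share of all genes. Without control pool 4 it was 2 higher and 2 lower (17% of all genes; 1 gene, or 0.00492%, called), and without control pool 1 the share of all genes was 14.1%. Without control pool 2 it was 0 (2.3% of all genes). Without βNrf2KO pools 1, 2, 3 and 4 the shares of all genes were 9.04%, 8.21%, 3.96% and 4.22%, with no member higher without pools 1 or 3 and 1, Hbegf, lower without pool 1. No member remained with the mesenchyme list (2.76%), 1 surrogate variable (5.26%) or the duct list (1.44%) as a covariate. In these fits Egfr differed by 0.57 ± 0.34, 0.62 ± 0.28 and 0.07 ± 0.25 on the log2 scale, so of these 3 the duct list moved it most. Egfr remained with the acinar list (5.67%) and the mitochondrial share (3.82%). Egfr also remained with RLE scaling (8.56%), library sizes without mitochondrial genes (8.4%), no filter (7.72%), 1 CPM in 3 pools (8.74%), DESeq2 (9.54%) and limma-voom (6.22%).

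The Egfr gene lies at chr11:16752203-16918158 on the plus strand. The antisense gene Egfros overlaps its span; it had 12 to 130 counts per pool and shares 0 exon bases with Egfr. The strand setting of the counting is not given in the sources used here, so reads of overlapping genes may not be separated where exons overlap.

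Erbb2, the partner receptor without a ligand (chr11:98412470-98437716, plus strand), was at 8.34, 13.3 and 5.01 CPM in control pools 1, 2 and 4 and at 6.09, 6.78, 6.18 and 7.41 CPM in βNrf2KO pools 1 to 4. The control pools spread on both sides of the βNrf2KO pools, with pool 2 the highest and pool 4 the lowest of all 7. The difference was -0.41 ± 0.30 on the log2 scale (edgeR adjusted p = 0.643). It was near 0 without control pool 2 (-0.0033) and -0.71 without control pool 4. With the mitochondrial share as a covariate, chosen after the values were seen, it was -0.08 ± 0.33. Erbb2 shares 9 exon bases with Mien1, a gene on the other strand.

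Erbb3 (chr10:128567523-128589652, minus strand), the neuregulin receptor with the weak kinase, was at 11.0, 19.4 and 14.6 CPM in control pools 1, 2 and 4 and at 8.98, 12.9, 14.5 and 15.1 CPM in βNrf2KO pools 1 to 4. The highest value came from control pool 2 and the lowest from βNrf2KO pool 1, and the groups overlapped over most of their range. The difference was -0.22 ± 0.25 on the log2 scale (edgeR adjusted p = 0.764), and it was 0.0023 without control pool 2.

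Erbb4 (chr1:68032186-69108059, minus strand), the receptor that neuregulins and several EGF-like ligands share, was read only 14 to 37 times per pool. It was at 0.851, 2.44 and 0.464 CPM in control pools 1, 2 and 4 and at 1.34, 1.31, 0.702 and 1.17 CPM in βNrf2KO pools 1 to 4. All 4 βNrf2KO values lay between the lowest and the highest control. The difference of -0.10 ± 0.55 on the log2 scale (edgeR adjusted p = 0.955) had no stable sign: it was 0.81 without control pool 2 and 0.32 with the block.

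Among the ligands, Hbegf, the heparin-binding EGF-like growth factor, was the most abundant. It was at 46.7, 52.8 and 34.3 CPM in control pools 1, 2 and 4 and at 41.6, 37.7, 25.3 and 29.6 CPM in βNrf2KO pools 1 to 4. Control pools 1 and 2 were the highest of the 7, while control pool 4 lay inside the range of βNrf2KO. The means were 44.6 ± 9.43 CPM (SD, n = 3) and 33.5 ± 7.42 CPM (SD, n = 4), a difference of -0.41 ± 0.21 on the log2 scale (edgeR unadjusted p = 0.0791, adjusted p = 0.571). Hbegf was lower in βNrf2KO in each of the 3 numbered pairs, by -0.17 to -0.48 log2 CPM. The difference was -0.27 without control pool 2, and without control pool 4 it was -0.57 ± 0.21 (edgeR adjusted p = 0.216).

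Tgfa, transforming growth factor alpha (chr6:86195223-86275719, plus strand), was at 8.62, 6.79 and 17.3 CPM in control pools 1, 2 and 4 and at 12.1, 12.6, 18.5 and 20.9 CPM in βNrf2KO pools 1 to 4. Control pools 1 and 2 were below every βNrf2KO pool, and control pool 4 was above 2 of them. The difference was 0.55 ± 0.32 on the log2 scale (edgeR adjusted p = 0.597), and with the block it was 0.54 ± 0.20 (edgeR unadjusted p = 0.0195, adjusted p = 0.332). Leaving out control pool 4 gave 1.06 ± 0.29 (edgeR adjusted p = 0.162), and leaving out control pool 1 or 2 gave 0.40 ± 0.36 or 0.29 ± 0.32. Tgfa shares 118 exon bases with Gm43917, a gene on the other strand with at most 10 counts per pool.

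Egf itself (chr3:129677565-129755316, minus strand), the founding ligand of the family, was at 3.86, 4.48 and 4.84 CPM in control pools 1, 2 and 4 and at 2.78, 3.92, 3.32 and 3.82 CPM in βNrf2KO pools 1 to 4. Only βNrf2KO pool 2 reached into the control range, just above control pool 1. The difference was -0.34 ± 0.26 on the log2 scale (edgeR adjusted p = 0.647), and Egf was lower in each of the 3 numbered pairs. Egf shares 607 exon bases with Gm42697 and 500 with 6330410L21Rik, on the other strand, which had at most 10 and 3 counts per pool.

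Btc, betacellulin, a ligand first known from β-cell tumour cells, was the only member whose groups did not overlap. It was at 0.964, 0.527 and 0.730 CPM in control pools 1, 2 and 4 and at 1.23, 1.03, 1.78 and 1.06 CPM in βNrf2KO pools 1 to 4. Every βNrf2KO pool was above every control pool, as it was for 3.19% of all tested genes, and which 6.99% showed in either direction. The highest control pool (17 reads) and the lowest βNrf2KO pool by CPM (22 reads) lay close together, and all levels rest on 8 to 38 reads per pool. The difference was 0.77 ± 0.43 on the log2 scale (edgeR unadjusted p = 0.0966, adjusted p = 0.585), and leaving out a pool moved it between 0.57 and 0.99.

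Egfr, Btc and Tgfa were thus higher in all 3 numbered pairs, which held for 19.1% of all tested genes, and Hbegf and Egf were lower in all 3, which held for 17.9%. The other 3 tested members did not keep a sign over the pairs.

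Areg, amphiregulin, and Ereg, epiregulin, were near the lower limit of detection. Areg had 7, 0 and 8 counts in control pools 1, 2 and 4 and 6, 8, 10 and 18 counts in βNrf2KO pools 1 to 4. A count of 0 in control pool 2 allows a level of up to 0.198 CPM (3 counts, counting error only). Fitted without the filter on low counts, Areg differed by 0.99 ± 0.79 on the log2 scale (edgeR unadjusted p = 0.217). Ereg had 34, 2 and 8 counts in control and 1, 14, 8 and 7 in βNrf2KO pools, and differed by -1.17 ± 0.78 in the same fit. Control pool 1 held most of the Ereg reads of its group, and neither gene was called in that fit. With a pool left out, Areg passed the filter in 3 fits (0.49 to 1.51) and Ereg in 2 (-1.63 and -1.61). Neither gene was called there. Ereg shares 141 exon bases with Gm19610, a gene on the other strand with at most 1 count per pool. Ereg (chr5:91074622-91093646), Areg (chr5:91139599-91148432) and Btc (chr5:91357261-91402994) are neighbours on chromosome 5, and the tables count them apart.

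**Figure D2:**
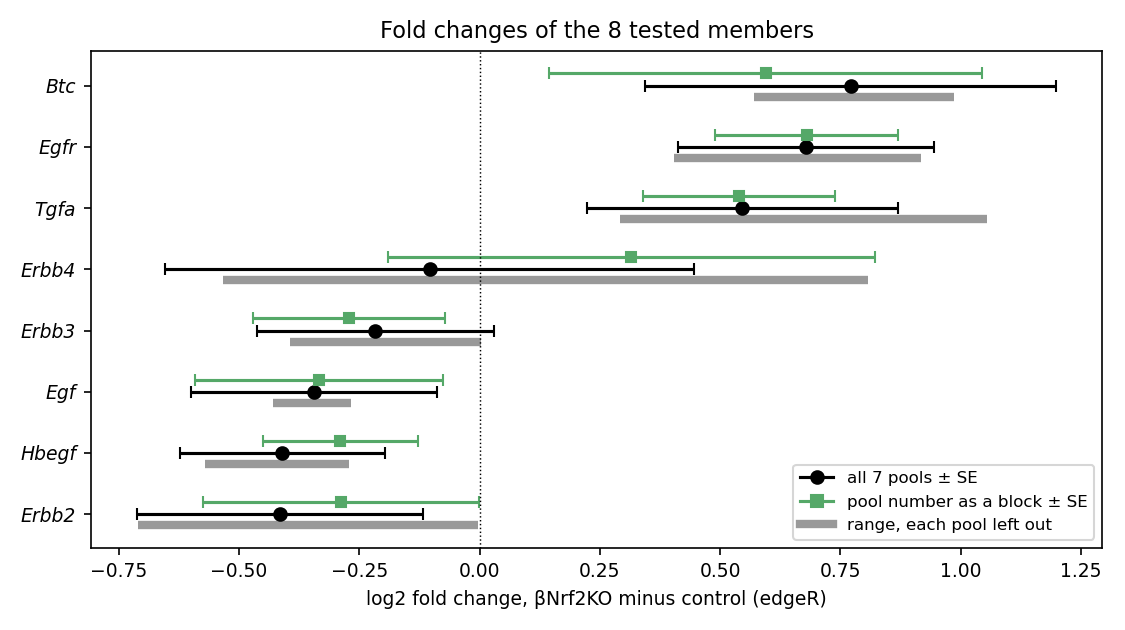
Fitted difference of the 8 tested genes, βNrf2KO minus control, on the log2 scale (x axis), from edgeR. Black points are the fit on all 7 pools and green squares the blocked fit, both with the standard error, and grey bars give the range when each pool is left out; the black points run from -0.41 (Erbb2) to 0.77 (Btc), and the bars of Erbb4 and, by 0.0023, Erbb3 cross 0.

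To compare genes with each other, levels were divided by exon length and given as RPKM, reads per kilobase of exon at a fixed library size. In control pools the order of mean log2 RPKM was Hbegf (4.21), Erbb3 (1.29), Egfr (0.68), Erbb2 (0.68), Tgfa (0.64), Egf (-1.34), Areg (-2.27), Btc (-2.47), Ereg (-2.92) and Erbb4 (-3.49). Hbegf stood above all others in every control pool. Erbb3, Egfr, Erbb2 and Tgfa overlapped as neighbours, a gap separated Tgfa from Egf, and the last 5 overlapped as neighbours. In βNrf2KO pools the order was Hbegf (3.80), Egfr (1.42), Tgfa (1.27), Erbb3 (1.08), Erbb2 (0.36), Areg (-1.19), Egf (-1.68), Btc (-1.76), Erbb4 (-3.38) and Ereg (-3.50). Hbegf again did not overlap the next gene, Egfr, Tgfa and Erbb3 were followed by Erbb2 and Areg across gaps, and Btc did not overlap Erbb4. The places of Areg and Ereg rest on few reads.

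**Figure D3:**
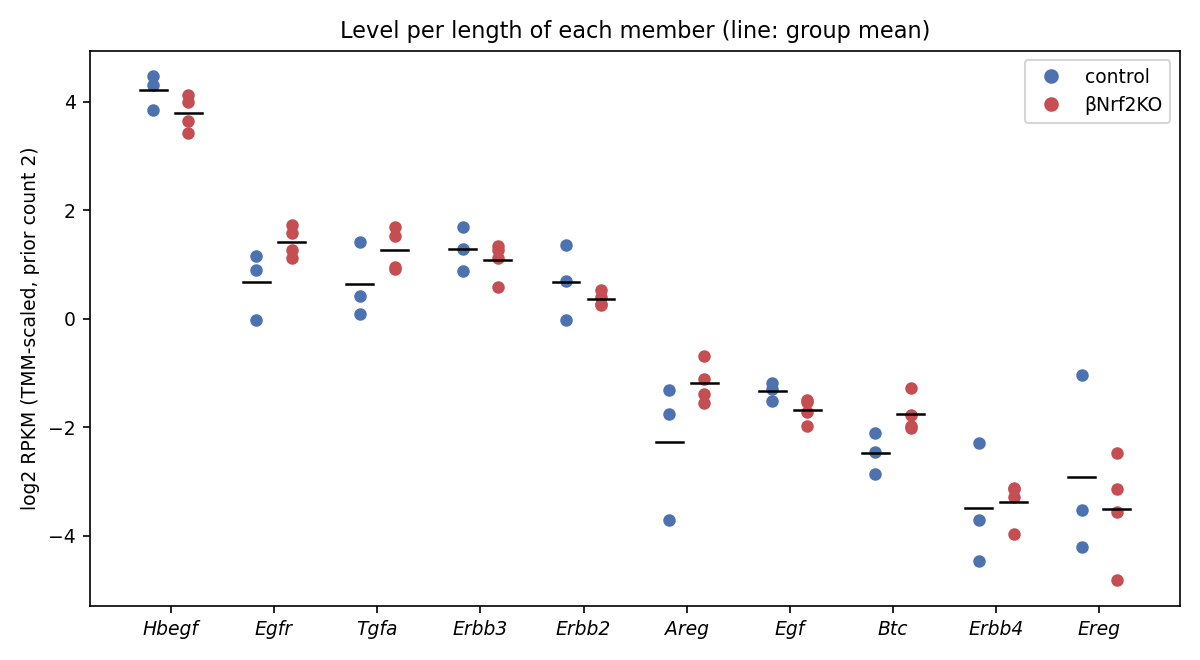
Level of each gene per exon length in log2 RPKM (y axis), with 1 point per pool and a line at the group mean, for control (blue) and βNrf2KO (red); genes are in the order of their βNrf2KO mean. Hbegf is highest in all 7 pools, with means of 4.21 and 3.80, and Erbb4 and Ereg lie at the bottom.

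The 4 receptors together made 5.98 ± 0.86 RPKM in control (SD, n = 3) and 6.20 ± 0.40 RPKM in βNrf2KO (SD, n = 4), which differed by less than the spread between pools. Within this sum Egfr took 38.8%, 14.0% and 35.3% in control pools 1, 2 and 4, against 54.3%, 37.8%, 45.0% and 37.2% in the 4 βNrf2KO pools in the order 1 to 4. Control pool 2 was the one with few Egfr reads, and there Erbb3 (46.4%) and Erbb2 (36.8%) made most of the receptor transcripts. The ligand sum was 21.4 ± 3.04 RPKM in control and 17.7 ± 2.40 RPKM in βNrf2KO, and Hbegf made 72.6% to 93.3% of it over the 7 pools. The share of Tgfa among ligands was 5.94%, 4.39% and 14.8% in control pools 1, 2 and 4, against 9.26%, 10.3%, 19.4% and 19.1% in βNrf2KO pools 1 to 4.

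Values of other transcripts moved with several of these genes. The duct marker list, led by Krt7, a keratin, and Epcam, an epithelial adhesion molecule, summed to 218, 170 and 226 CPM in control pools 1, 2 and 4 and to 283, 220, 293 and 240 CPM in βNrf2KO pools 1 to 4. The pool lowest in Egfr was also lowest in this sum, and βNrf2KO pools 1 and 3, the highest in Egfr, were the highest in it. All 8 duct markers were detected in every pool, and 5 of them had a fitted difference above 0. With the mean of the duct list as a covariate, the difference of Egfr was 0.07 ± 0.25 on the log2 scale (edgeR unadjusted p = 0.795) and that of Btc 0.20 ± 0.54. That covariate was chosen after the values were seen, and the list itself was higher in βNrf2KO (259 ± 34.7 against 204 ± 30.3 CPM, SD, n = 4 and 3).

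Tgfa was lowest in control pools 1 and 2, the pools with the largest mitochondrial share, and highest in βNrf2KO pool 4, the pool with the smallest. Hbegf was highest in control pools 1 and 2. With the log2 mitochondrial share as a covariate, also chosen after the values were seen, Tgfa differed by 0.17 ± 0.22 on the log2 scale and Hbegf by -0.17 ± 0.19. With the mesenchyme list as a covariate they differed by 0.12 ± 0.28 and -0.13 ± 0.23, and with the acinar list by 0.19 ± 0.25 and -0.19 ± 0.20. Mesenchyme markers, led by Vim and Col1a1, were 803 to 1986 CPM in control and 777 to 1364 CPM in βNrf2KO pools, with all 9 markers fitted below 0. Acinar markers were 60.9 to 392 CPM in control and 51.5 to 216 CPM in βNrf2KO pools, with all 8 tested markers below 0. Their part in the differences of the ligands was not tested beyond these fits.

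**Figure D4:**
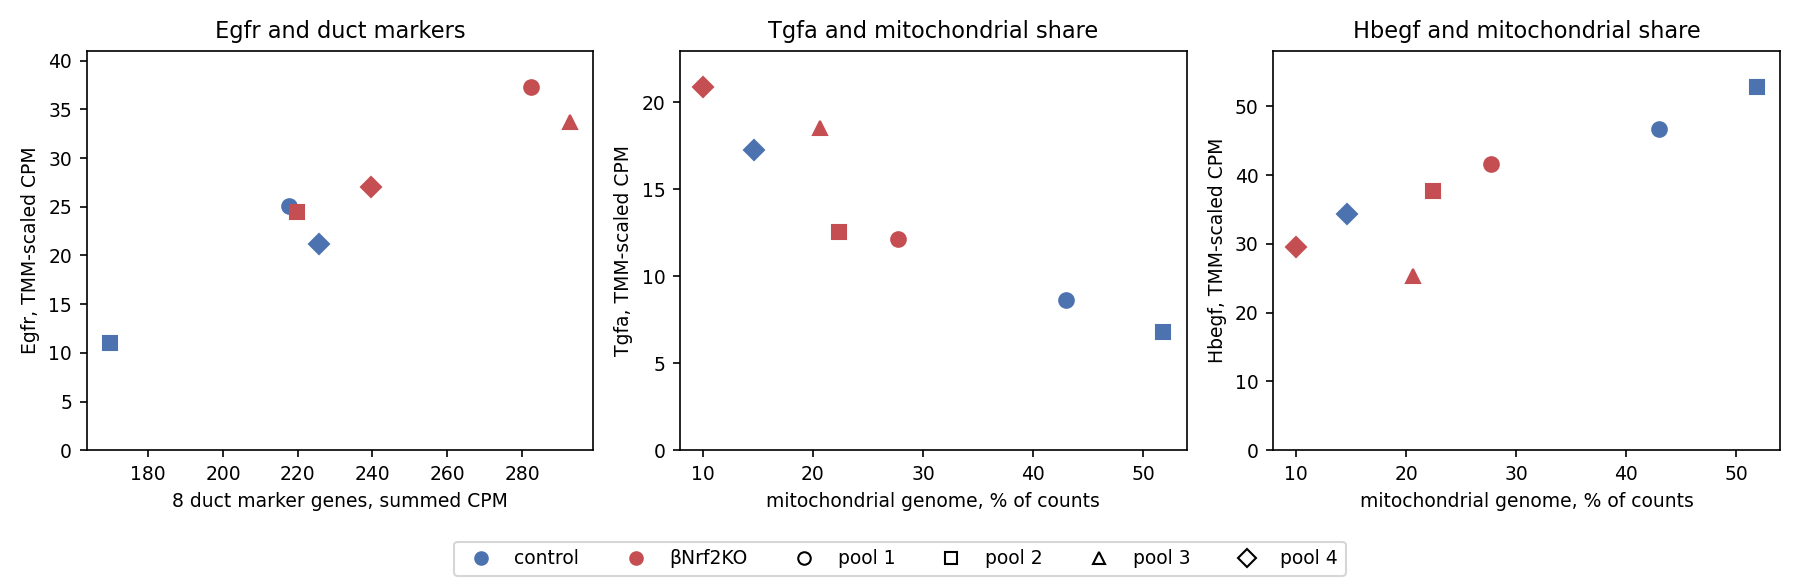
Level of Egfr, Tgfa and Hbegf (y axes, TMM-scaled CPM) against the summed duct markers (left, CPM) or the mitochondrial percentage of counts (middle and right) in the same pool, with 1 point per pool, colour for the group and shape for the pool number. Egfr is lowest, at 11.0 CPM, where the duct sum is lowest, Tgfa is highest, at 20.9 CPM, where the mitochondrial share is smallest, and Hbegf is highest, at 52.8 CPM, where that share is largest.

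The genes whose log2 CPM followed Egfr most closely over the 7 pools, among 9109 genes of sufficient level, were Trim56, Hacd3, Man1a, Ctnnb1 and Pex26, each with a Pearson r of 0.99. Ctnnb1 encodes β-catenin, Man1a a mannosidase of the Golgi and Pex26 a peroxisome protein. The likeness is a description over 7 pools that differ in library size and makeup. The names were not stable. By Spearman's rho 0 of these 5 were among the first 5, and leaving out a pool kept 0 to 3.

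The pathway around the receptors was read from a list of 56 genes, of which 55 passed the filter (Epgn did not) and 0 passed the test. At an unadjusted p under 0.05 there were 1 higher and 4 lower of 55, near the shares of all tested genes (3.23% higher and 5.23% lower). Of the differences 18 lay above 0 and 37 below, with a median of -0.08, against 49.4% above 0 and a median of -0.01 over all tested genes. With the block the count was 1 higher and 7 lower, when 12.1% of all genes, 1198 higher and 1217 lower, had such a p. Without control pool 1 it was 6 lower, when 14.1% of all genes (1511 of them lower) had such a p. Without control pool 2 it was 0 lower, when 2.3% of all genes (288 of them lower) did. In the main fit the groups did not overlap for 1 gene higher (Eps15) and 2 lower (Nrg1 and Spry2) of the 55. Over all tested genes the shares were 3.19% and 3.8%. The list was drawn up with earlier results of these data known.

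Of the other ligands, the neuregulin Nrg1, a ligand of Erbb3 and Erbb4, was at 5.33, 7.65 and 5.74 CPM in control pools 1, 2 and 4 and at 2.46, 4.35, 4.73 and 4.51 CPM in βNrf2KO pools 1 to 4. All βNrf2KO pools were below all control pools, as for 3.8% of all tested genes, and the difference was -0.63 ± 0.28 on the log2 scale (edgeR unadjusted p = 0.0462, adjusted p = 0.571). Nrg3, another neuregulin, differed by -0.68 ± 0.37, and by -0.41 without control pool 2. Schwann and neuronal markers, with Tubb3 the most abundant, were 69.0 to 117 CPM in control and 58.1 to 77.2 CPM in βNrf2KO pools, and their part in the neuregulin values was not tested.

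Among the proteins that release ligands, the inactive rhomboid Rhbdf1, a partner of the protease Adam17, had the smallest p of the list. It was at 38.9, 70.0 and 25.9 CPM in control pools and at 28.3, 26.3, 20.2 and 17.2 CPM in βNrf2KO pools 1 to 4. Control pool 2 was the highest of the 7 and control pool 4 lay within the βNrf2KO range. The difference was -0.96 ± 0.30 on the log2 scale (edgeR unadjusted p = 0.00764, adjusted p = 0.571). It was -0.49 ± 0.24 without control pool 2 and -0.45 ± 0.21 with the mitochondrial share as a covariate. The protease Adam10 differed by 0.40 ± 0.19 on the log2 scale (edgeR adjusted p = 0.571).

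All 10 negative feedback genes had a fitted difference below 0, as had 10075 of the 19893 tested genes. Their median was -0.26, and 0 of the 10 passed the test. The Sprouty genes, which damp signalling from receptor tyrosine kinases, were the first of them by p: Spry4 differed by -0.47 ± 0.21 (edgeR unadjusted p = 0.0449, adjusted p = 0.571) and Spry2 by -0.38 ± 0.23 on the log2 scale. Spry4 was -0.32 without control pool 2 and 0.0131 with the duct list as a covariate, and Spry2 was -0.10 without control pool 1 and -0.14 with the mesenchyme list. Of the 9 transcription targets 8 lay below 0, with a median of -0.26. The AP-1 subunit Fosl1 differed by -0.71 ± 0.32 and Myc, a growth regulator, by -0.49 ± 0.29 on the log2 scale (edgeR adjusted p = 0.571 and 0.599). Without control pool 1 they were -0.25 and -0.12, and without control pool 4 Myc was -0.78. With the acinar list as a covariate they were -0.16 and 0.0328, and with the mesenchyme list -0.0769 and 0.084.

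The signal carriers lay on both sides of 0. In the RAS, RAF and MAP kinase group 5 of 10 were above 0, with a median of 0.03. In the PI3K and AKT group 3 of 8 were above 0 (median -0.07), and Pik3r2, a regulatory subunit of PI3K, and Akt1 differed by -0.31 ± 0.19 and -0.19 ± 0.16 on the log2 scale. The adaptors and ubiquitin ligases had a median of 0.10, with Eps15, an endocytosis adaptor, at 0.29 ± 0.15 and the docking protein Gab1 at -0.33 ± 0.20. Without control pool 2, Pik3r2, Akt1 and Gab1 were at -0.0726, -0.0818 and -0.10.

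**Figure D5:**
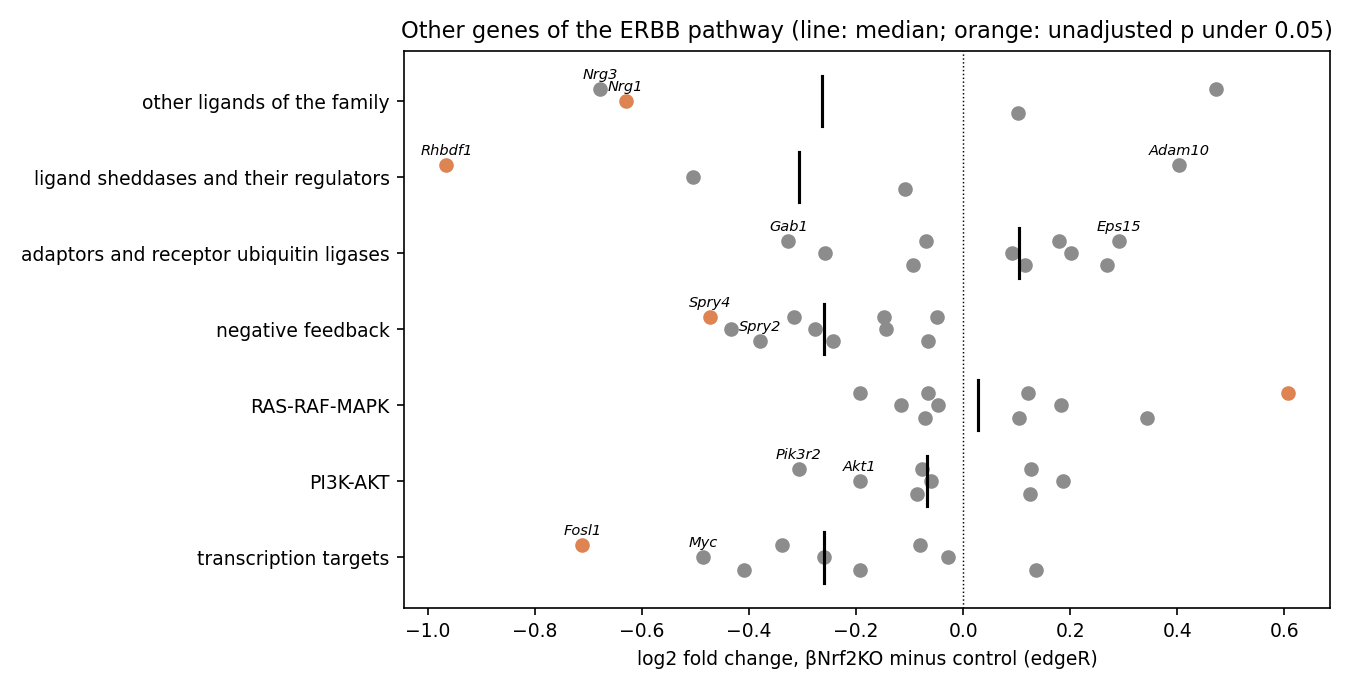
Fitted difference, βNrf2KO minus control, on the log2 scale (x axis) for the 55 tested pathway genes by role (y axis), with 1 point per gene, a black line at the median of each role and orange for an unadjusted p under 0.05. All 10 negative feedback genes lie below 0, and every other role has genes on both sides of 0.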

How the data were processed

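The authors deposited 1 table of unnormalized gene counts for each pool. Per the submitters' processing notes the tools named are Subread 1.5.2 (featureCounts), STAR 2.5.2b, Trimmomatic 0.36 and bcl2fastq 2.20. Their parameters, the strand setting and the treatment of multi-mapped reads are not given in the sources used here. A different build is listed there. Of 48970 gene IDs shared with GENCODE M21 (GRCm38), however, 91.4% had an identical span, as had 9 of the 10 members. Coordinates are therefore GRCm38 as in the files. The gene name table, which covers the same IDs, gave symbols for 48970 of 49315. Library sizes and tests exclude the Cre entry.

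Counts were fitted with edgeR 4.0.16 in R 4.3.3 (TMM scaling, filterByExpr by group, robust quasi-likelihood, all 7 pools, no covariate), with Benjamini-Hochberg adjustment over 19893 genes. The code was tested on simulated data. CPM and RPKM use TMM library sizes, and log2 values a prior count of 2. In the numbered pools the deviations from the group means correlated across genes by 0.38, 0.23 and 0.32 for pools of equal number (1, 2 and 4), against -0.35 to 0.24 for unequal numbers. The value for the pools numbered 2 lay below the highest of the unequal ones. That highest value was between control pool 4 and βNrf2KO pool 3, which has no control of its number. The other unequal values ran from -0.35 to -0.04. The labels state no pairing, and these correlations do not settle one. The numbers were taken as pairs for the blocked fit and for the differences by pair. Alternatives were RLE scaling, library sizes without mitochondrial genes, no filter, 1 CPM in 3 pools, DESeq2 1.42.0, limma-voom (limma 3.58.1), the block, marker list covariates, 1 surrogate variable (sva 3.50.0) and leaving out each pool. The duct list and mitochondrial share covariates were added after seeing the data.

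Named genes were all 10 members, Nfe2l2, the 2 tested genes of smallest p in each pathway role, the 2 most abundant genes of a marker list and the 5 genes most like Egfr whose mean log2 CPM was 3 or more. The members and lists were chosen with earlier results of these data known. Some genes that this rule names are not reported here.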

Additional observations from a re-analysis of the deposited data

Results flagged for a closer look

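Of 31 sets of βNrf2KO values looked at for a pool far from the other 3, 2 had one, and chance alone gives about 1 in 20. Nrg1 was at 1.35 log2 CPM in βNrf2KO pool 1, below the other 3. Myc was at 4.35 log2 CPM in βNrf2KO pool 4, below the other 3. A sequence of Cre recombinase, which no comparison used, had a mean of 41.5 counts in the βNrf2KO pools and 0 in every control pool.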

How the results depend on the processing

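No member passed an adjusted p of 0.05 under any of the alternatives run. DESeq2 called 2 genes of the whole table, all lower, and the fit without control pool 4 called 1, lower. With the replicate block 1 gene was called higher and 13 lower, 2 members had an unadjusted p under 0.05 higher and 7 pathway genes lower; it changed no call of a member. The direction of Egfr, Btc, Hbegf, Tgfa and Egf held under every alternative run, with Egfr between 0.07 and 0.92 on the log2 scale.

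Leaving out a pool gave 0 to 2 members at an unadjusted p under 0.05 higher and 0 to 2 lower, and 0 to 3 pathway genes higher and 0 to 6 lower. The count of members higher was 0 with the mesenchyme or duct covariate or with 1 surrogate variable. Pathway genes higher numbered 2 with RLE scaling, without the filter and with limma-voom, and 0 with the acinar, mesenchyme, duct or mitochondrial covariate. Pathway genes lower numbered 1 with limma-voom, 1 surrogate variable and the duct or mitochondrial covariate, 2 with the acinar and 0 with the mesenchyme covariate. The share of all genes at such a p, in either direction, moved too, from 8.46% in the main fit. It was 8.56% with RLE scaling, 7.72% without the filter, 6.22% with limma-voom and 5.26% with 1 surrogate variable. With the acinar, mesenchyme, duct and mitochondrial covariates it was 5.67%, 2.76%, 1.44% and 3.82%. Leaving out a pool gave 2.3% to 17%.

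Erbb2 turned to 0.0135 with the mesenchyme covariate, and Erbb3 to 0.19 with the duct covariate and ranged from -0.39 to 0.0023 when a pool was left out (0.0023 without control pool 2). Erbb4 turned to 0.36 with limma-voom, 0.32 with the block, 0.25, 0.64, 0.82 and 0.58 with the acinar, mesenchyme, duct and mitochondrial covariates, 0.61 with 1 surrogate variable, 0.81 without control pool 2 and 0.07 without βNrf2KO pool 3, in a range of -0.53 to 0.81 when a pool was left out. With the duct covariate Gab1 turned to 0.0217, Spry4 to 0.0131, Akt1 to 0.0612 and Nfe2l2 to -0.33, and Nfe2l2 was -0.10 and -0.05 without control pools 2 and 4 and 0.45 without control pool 1. Myc turned to 0.0328, 0.084 and 0.0203 with the acinar, mesenchyme and mitochondrial covariates. The cause of these changes was not tested.

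In control the place of 3 members in the order per length changed by TPM and of 4 with library sizes without mitochondrial genes; leaving out a pool moved 2 to 6 in control and 0 to 4 in βNrf2KO. Of the 5 genes most like Egfr, 0 were kept by Spearman's rho and 0 to 3 when a pool was left out. Btc, Erbb4, Areg and Ereg had at most 38 counts in any pool; what limits the calls of the members was not tested.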
